A study of Homo sapiens with 6 samples.

Results

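The genes that encode the core of the SIN3 histone deacetylase complex and its ING subunits were followed in MDA-MB-231 cells depleted of ING2 messenger RNA. The 10 genes were ING2, ING1, SIN3A, SIN3B, SAP30, SAP30L, SAP130, SUDS3, BRMS1 and ARID4B, of 19777 genes on the array. They were read through every probe set whose annotation named 1 of them and no other gene, which gave 31 of 54613 probe sets. MDA-MB-231 is a human breast cancer cell line of mesenchymal character that lacks the estrogen receptor. Arrays came from 3 samples transfected with an ING2 siRNA and from 3 samples transfected with a non-targeting control siRNA. The labels name 1 ING2 siRNA only, so effects of that reagent and effects of losing ING2 cannot be told apart. RNA was taken at 4 days after transfection by one field of the labels and at 3 days by another. Nothing in the labels says that replicates came from separate cultures, so the p-values rest on a spread between samples that may be technical.

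SIN3 proteins are large scaffolds without DNA-binding activity of their own, which carry the histone deacetylases HDAC1 and HDAC2 to promoters. ING1 and ING2 each hold a PHD finger that binds histone H3 trimethylated at lysine 4, a mark of active promoters, and tether the complex there. The remaining subunits stabilise the complex, bridge it to DNA-bound repressors or regulate its deacetylase activity.

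Messenger RNA was measured as probe set intensity on 1 array a sample, and precision is limited by having 3 arrays in each group. Median intensity lay between 78.3 and 81.4 units on the ING2 siRNA arrays and between 75.6 and 77.1 units on the control arrays. Across all probe sets the median log2 change, ING2 siRNA minus control siRNA, was 0.07, and dim probe sets had higher changes than bright ones. RNA integrity, read as the 3' minus 5' difference of the control probe sets for GAPDH, averaged 0.316 ± 0.042 log2 units on ING2 siRNA arrays and 0.205 ± 0.015 on control arrays (SD, n = 3 each, exact two-sided permutation p = 0.1, the smallest that 3 against 3 arrays allow). The same difference for ACTB averaged 0.541 ± 0.096 on ING2 siRNA arrays and 0.490 ± 0.110 on control arrays, with overlapping groups (SD, n = 3 each, exact two-sided permutation p = 0.6). Of 5 genes listed as markers of the line, VIM, CD44, AXL and CAV1 lay at or above percentile 97.9 of all probe sets by intensity. SPARC, at 41.1, lay below the median probe set. Such a rank does not by itself show whether a gene is expressed, as no background level was measured. Of luminal breast markers, KRT19 lay at percentile 98.6, GATA3 at 73.1, ESR1 at 58.0, CDH1 at 38.3 and PGR at 10.9, so that 3 of 5 lay above the median probe set. Among 4 fibroblast markers DCN was called higher and LUM lower, with summed intensities of 480 to 535.3 units after ING2 siRNA and 531 to 606.2 in controls, and 0 of 3 measured blood markers were called. Values under a scaling that levels the intensity trend are given with the results below, while the part of RNA integrity and of these markers was not tested.

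ING2 itself, the target of the siRNA, was strongly lower in every ING2 siRNA sample. Its brighter probe set, 205981_s_at, read 163, 188 and 161 units after ING2 siRNA, against 1400, 1349 and 1324 units in control samples. The groups lay far apart, and the level after ING2 siRNA was 12.5% of control (95% interval 10.9% to 14.5%), a 7.98-fold fall (log2 change -2.997, SE 0.09, limma adjusted p = 1.58e-06 by Benjamini-Hochberg over all probe sets). The dimmer probe set, 213544_at, read 34.6, 40.1 and 26.8 units after ING2 siRNA, against 73.1, 111 and 93.7 units in control samples. Here too no ING2 siRNA array reached the lowest control array, and the level was 36.5% of control (95% interval 27.9% to 47.9%, log2 change -1.45, SE 0.18, limma adjusted p = 0.00472).

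The 2 ING2 probe sets did not give the same size of fall. The log2 ratio of the bright to the dim probe set was 2.35 ± 0.20 on ING2 siRNA arrays and 3.89 ± 0.34 on control arrays (SD, n = 3 each, exact two-sided permutation p = 0.1). The dim probe set lay at percentile 40.7 of all probe sets by intensity and the bright one at 82.6, and whether background signal bears on the difference was not tested. In RNA from a whole culture, less transcript in every cell and loss of transcript from some of the cells cannot be told apart.

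**Figure D1:**
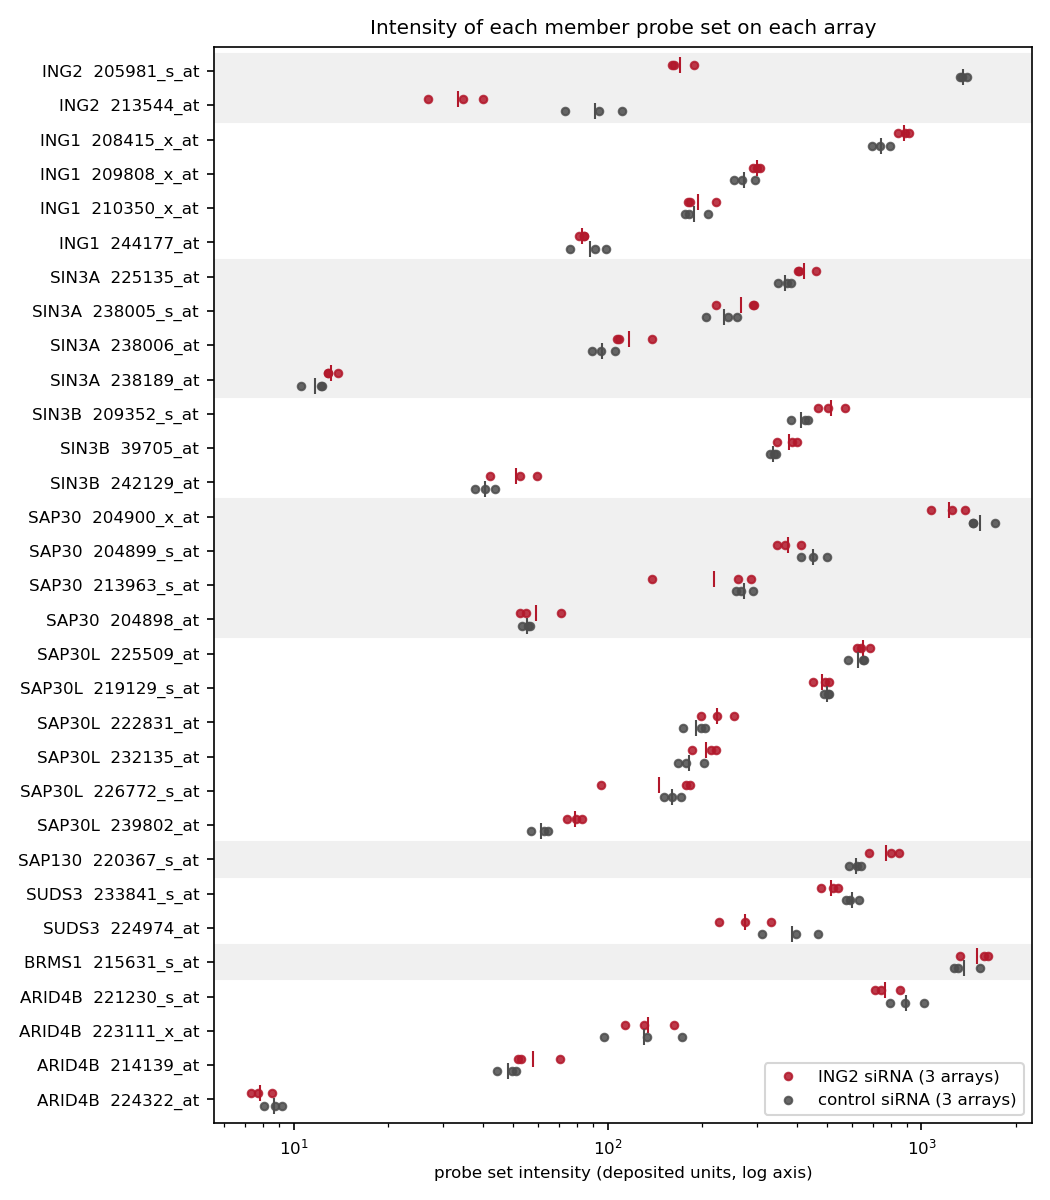
Intensity (x axis, deposited units, log scale) of the 31 probe sets of the 10 genes, with 1 point for each array, ING2 siRNA arrays in red above control siRNA arrays in grey, and a tick at each group's geometric mean. Only for the 2 ING2 probe sets do the groups lie far apart; 205981_s_at sits between 161 and 188 units after ING2 siRNA and between 1324 and 1400 in controls.

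None of the other 9 genes had a probe set past the threshold of limma adjusted p under 0.05. Of their 29 probe sets, 0 were called higher and 0 lower, and over all probe sets 1.64% were called higher and 3.64% lower (5.28% in either direction). In number these were 897 higher and 1989 lower, against 279 and 2927 after median centring of each array and 308 and 1720 after cyclic loess, which levels the intensity trend between arrays. At an unadjusted p under 0.05, 6 were higher and 4 lower in limma, or 20.7% and 13.8% of the 29, against 16.4% and 11.6% of all probe sets. The 95% intervals of the log2 changes of all 29 lay between -0.87 and 0.61. A p that misses the threshold does not show that a level was unchanged, and these intervals, which are not adjusted for the number of probe sets, give the sizes of change that remain compatible with the arrays.

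**Figure D2:**
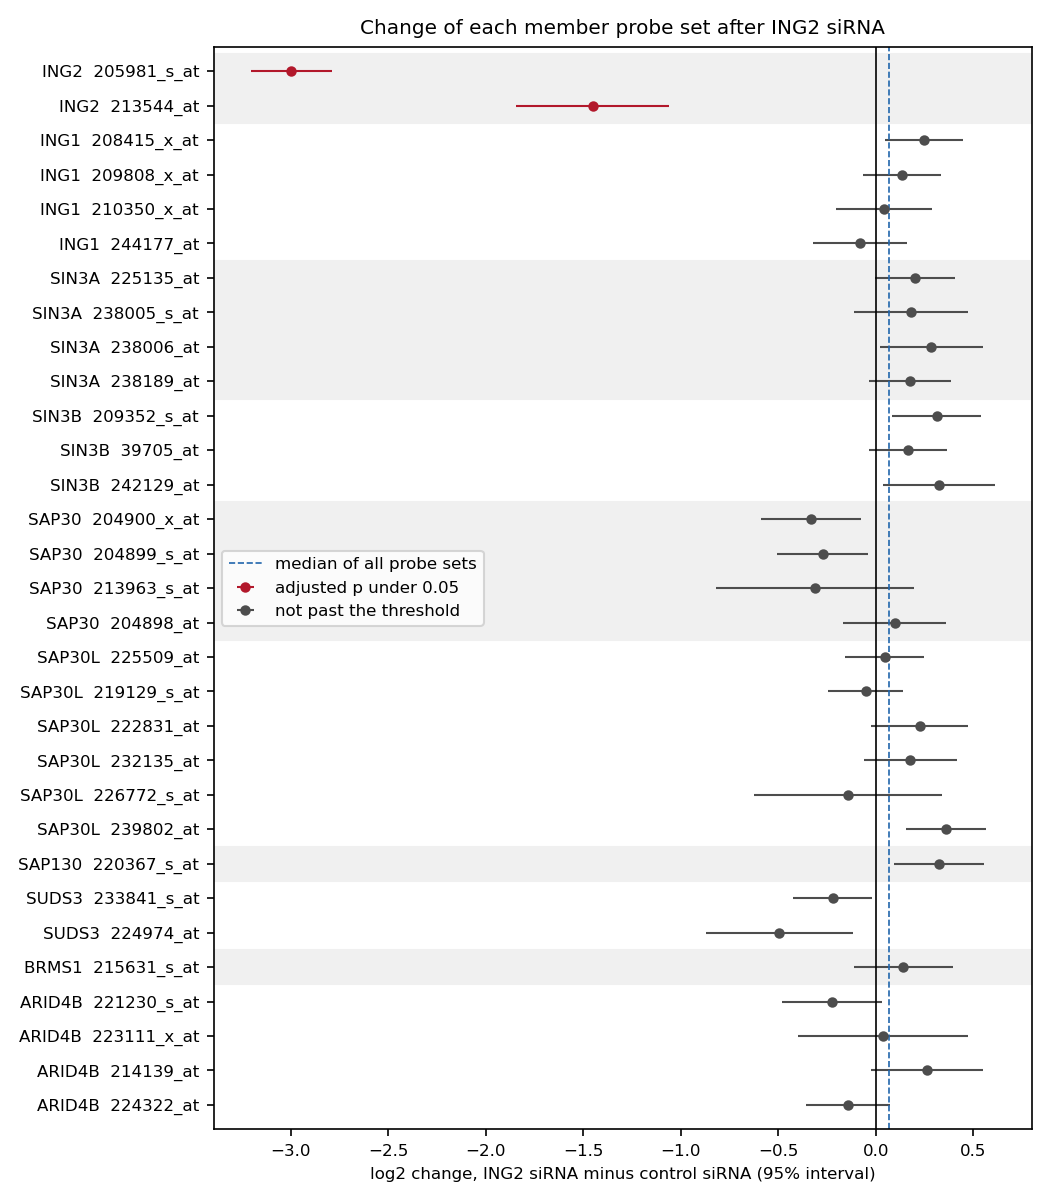
Log2 change, ING2 siRNA minus control siRNA (x axis), of each of the 31 probe sets with its 95% interval from limma, with those past adjusted p under 0.05 in red and the median of all probe sets (0.07) dashed. The 2 ING2 probe sets, at -2.997 and -1.45, are called, and the other 29 lie between -0.49 and 0.36.

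ING1 is the closest relative of ING2 among the subunits and occupies the same place in the SIN3 complex. Its brightest probe set, 208415_x_at, read 840, 889 and 915 units after ING2 siRNA, against 696, 792 and 739 units in control samples. All ING2 siRNA arrays were above all control arrays, with a level of 119% of control (95% interval 103% to 136%) that did not pass (log2 change 0.25, SE 0.09, limma adjusted p = 0.115). The other 3 ING1 probe sets overlapped between the groups, with log2 changes of 0.14, 0.04 and -0.08 and limma adjusted p from 0.337 to 0.820. Of the 4, 3 carry the suffix x, by which the array's maker marks probe sets that may also bind similar transcripts of other genes.

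The scaffold genes SIN3A and SIN3B had values above 0 in all 7 of their probe sets, none past the threshold. SIN3A, the main scaffold of the ING-containing complex, read 403, 407 and 462 units after ING2 siRNA in its brightest probe set, 225135_at, against 349, 383 and 372 units in control samples. The groups did not overlap there, and the level was 115% of control (95% interval 99.6% to 133%, log2 change 0.20, SE 0.09, limma adjusted p = 0.188). The next SIN3A probe sets, 238005_s_at and 238006_at, had log2 changes of 0.18 and 0.28, with groups apart in 238006_at only. The dimmest, 238189_at, at percentile 10.5 of intensity, read 13.9, 12.8 and 12.9 units after ING2 siRNA and 12.3, 12.2 and 10.6 in controls, with a log2 change of 0.18.

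SIN3B, the paralogous scaffold, read 470, 505 and 570 units after ING2 siRNA in 209352_s_at, against 435, 425 and 383 units in control samples. This was 124% of control with no overlap (95% interval 106% to 145%, log2 change 0.31, SE 0.10, limma adjusted p = 0.0930). In 39705_at the values were 347, 387 and 403 units after ING2 siRNA and 344, 329 and 338 units in controls, again apart but closer (log2 change 0.17, SE 0.09, limma adjusted p = 0.252). The dim probe set 242129_at read 59.6, 42.3 and 52.7 units after ING2 siRNA and 40.7, 37.9 and 43.9 units in controls, so that the groups overlapped (log2 change 0.32, SE 0.13, limma adjusted p = 0.139). Values above 0 were common: 62.5% of all probe sets had one. Across the 7 scaffold probe sets the median log2 change was 0.20, against 0.07 over all probe sets. Each of the 7 lay above the median of probe sets of like intensity, taken in 10 bins of equal size. Of all 29 probe sets of the 9 genes, 17 did. The 7 stand for 2 genes read on the same 6 arrays, so they are not independent of each other.

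SAP30, which stabilises the link between SIN3 and the deacetylases, had values below 0 in its 3 brighter probe sets and above 0 in the dimmest. The brightest, 204900_x_at, read 1249, 1374 and 1070 units after ING2 siRNA, against 1464, 1455 and 1712 units in control samples. These groups did not overlap, at 79.5% of control (95% interval 66.6% to 95.01%), without passing (log2 change -0.33, SE 0.11, limma adjusted p = 0.107). In 204899_s_at the values were 413, 366 and 348 units after ING2 siRNA and 498, 451 and 412 units in controls, with ING2 siRNA replicate 1 level with control replicate 3 (log2 change -0.27, limma adjusted p = 0.132). The probe set 213963_s_at read 261, 287 and 139 units after ING2 siRNA and 258, 266 and 291 in controls. Its change of -0.31 rested on ING2 siRNA replicate 3, and without that array it was 0.01. The dim 204898_at had a log2 change of 0.10 with overlapping groups.

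SAP30L, a close paralog of SAP30, was measured by 6 probe sets that pointed in different directions. The 2 brightest, 225509_at and 219129_s_at, had log2 changes of 0.05 and -0.05 and limma adjusted p of 0.757 and 0.719. The one nearest to the threshold among all 29 was the dim 239802_at, which read 82.9, 79.2 and 74.2 units after ING2 siRNA, against 56.9, 64.7 and 62.9 units in control samples. The groups were apart at 128% of control (95% interval 111% to 148%, log2 change 0.36, SE 0.09, limma adjusted p = 0.0535). With the arrays levelled by cyclic loess, this probe set had a log2 change of 0.25 and limma adjusted p = 0.153. Probe sets 222831_at and 232135_at had values of 0.22 and 0.18 with overlapping groups. In 226772_s_at, ING2 siRNA replicate 3 again stood apart: the values were 184, 178 and 95 units after ING2 siRNA and 161, 152 and 172 in controls. The log2 change there was -0.14, and 0.17 without that array.

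SAP130, thought to help assemble the SIN3 complex, was measured by 1 probe set. It read 680, 802 and 846 units after ING2 siRNA, against 625, 642 and 586 units in control samples. Every ING2 siRNA array was above every control array, at 125% of control (95% interval 107% to 147%, log2 change 0.32, SE 0.10, limma adjusted p = 0.0879). After quantile normalization it passed as higher (log2 change 0.43, limma adjusted p = 0.0457), and after cyclic loess it did not (0.40, limma adjusted p = 0.0569).

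SUDS3, the human counterpart of yeast Sds3, which supports the deacetylase activity of the complex, had values below 0 in both of its probe sets. The brighter, 233841_s_at, read 523, 543 and 480 units after ING2 siRNA, against 576, 634 and 592 units in control samples. The groups did not overlap, at 85.7% of control (95% interval 74.6% to 98.6%, log2 change -0.22, SE 0.09, limma adjusted p = 0.148). In 224974_at the values were 227, 332 and 274 units after ING2 siRNA and 310, 398 and 468 units in controls. These groups overlapped and spread widely, and the log2 change of -0.49 was the lowest of the 29 (SE 0.17, 95% interval -0.87 to -0.12, limma adjusted p = 0.103). It passed as lower without control replicate 1 (log2 change -0.65, limma adjusted p = 0.0408).

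BRMS1, named as a breast cancer metastasis suppressor, read 1631, 1579 and 1329 units after ING2 siRNA, against 1538, 1269 and 1307 units in control samples. The groups overlapped, and the level was 110% of control (95% interval 92.6% to 131%, log2 change 0.14, SE 0.11, limma adjusted p = 0.426).

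ARID4B, a subunit with an ARID domain that also binds the retinoblastoma protein, had 4 probe sets split evenly about 0. The brightest, 221230_s_at, read 709, 852 and 742 units after ING2 siRNA, against 797, 1015 and 884 units in control samples, with overlap (log2 change -0.23, SE 0.11, limma adjusted p = 0.224). The dim 214139_at was apart in the other direction, at 70.8, 51.8 and 52.8 units after ING2 siRNA and 51.0, 49.7 and 44.4 in controls (log2 change 0.26, limma adjusted p = 0.212). Probe set 223111_x_at varied most among the control arrays of all 31 (SD 0.41 log2 units) and had a change of 0.04. The probe set 224322_at lay at percentile 4.56 of intensity, with 7.32 to 8.56 units after ING2 siRNA and 8.07 to 9.21 units in controls. A further pair of probe sets names ARID4B together with RBM34 and was left out by the rule. One of them, 214943_s_at, was called lower (134, 110 and 98.6 units after ING2 siRNA, 170, 169 and 177 units in controls, log2 change -0.60, limma adjusted p = 0.0252), and the arrays cannot say which of the 2 genes it reports.

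The counts over the 29 probe sets of the 9 genes are given here beside those over all probe sets, with no test between them. Of the 29, 19 had a value above 0, or 65.5%, against 62.5% of all probe sets, and their median was 0.14, against 0.07. Groups did not overlap in 9 with higher values, or 31.0%, and in 2 with lower values, or 6.90%, while over all probe sets these shares were 20.5% and 12.3%. Compared with the 5th to 95th percentile of probe sets in the same intensity bin, a range that leaves 5% of the bin above it and 5% below, 3 lay above, or 10.3%, and 0 below. Those 3 were SAP130, SIN3B 209352_s_at and SAP30L 239802_at.

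**Figure D3:**
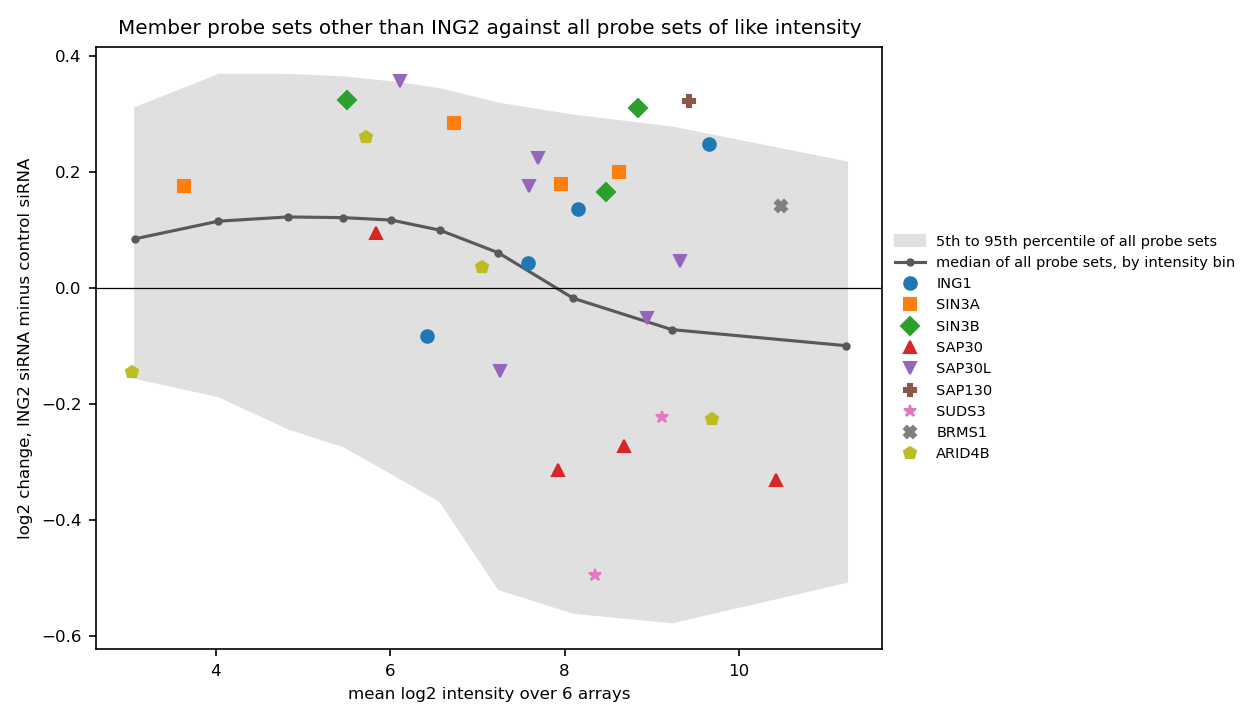
Log2 change, ING2 siRNA minus control siRNA (y axis), against mean log2 intensity over 6 arrays (x axis) for the 29 probe sets of the 9 genes other than ING2, with the median (line) and the 5th to 95th percentile (grey) of all probe sets in 10 equal bins by intensity. The line lies at 0.09 in the dimmest bin and at 0.12 in bins 2 to 5, and then falls with intensity, to -0.10 in the brightest bin. All 7 SIN3A and SIN3B points lie above it, and SAP130, SIN3B 209352_s_at and, narrowly, SAP30L 239802_at lie above the grey band.

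Direction depended on the scaling for a few probe sets near 0. Values above 0 numbered 16 of 29 after median centring of each array, or 55.2% against 48.7% of all probe sets. After quantile normalization they numbered 20, or 69.0% against 55.7%. After cyclic loess they numbered 18, or 62.1% against 50.7%, and the median of the 29 was 0.12, against 0.003 over all probe sets. The 7 SIN3A and SIN3B values stayed above 0 under each of these scalings, as did SAP130, BRMS1 and ING1 208415_x_at, while both SUDS3 values and the 3 brighter SAP30 values stayed below 0. SAP130 after quantile normalization was the only call among the 29 under these 3 scalings. After cyclic loess 0 of the 29 were called in either direction, against 0.564% of all probe sets called higher and 3.15% called lower.

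**Figure D4:**
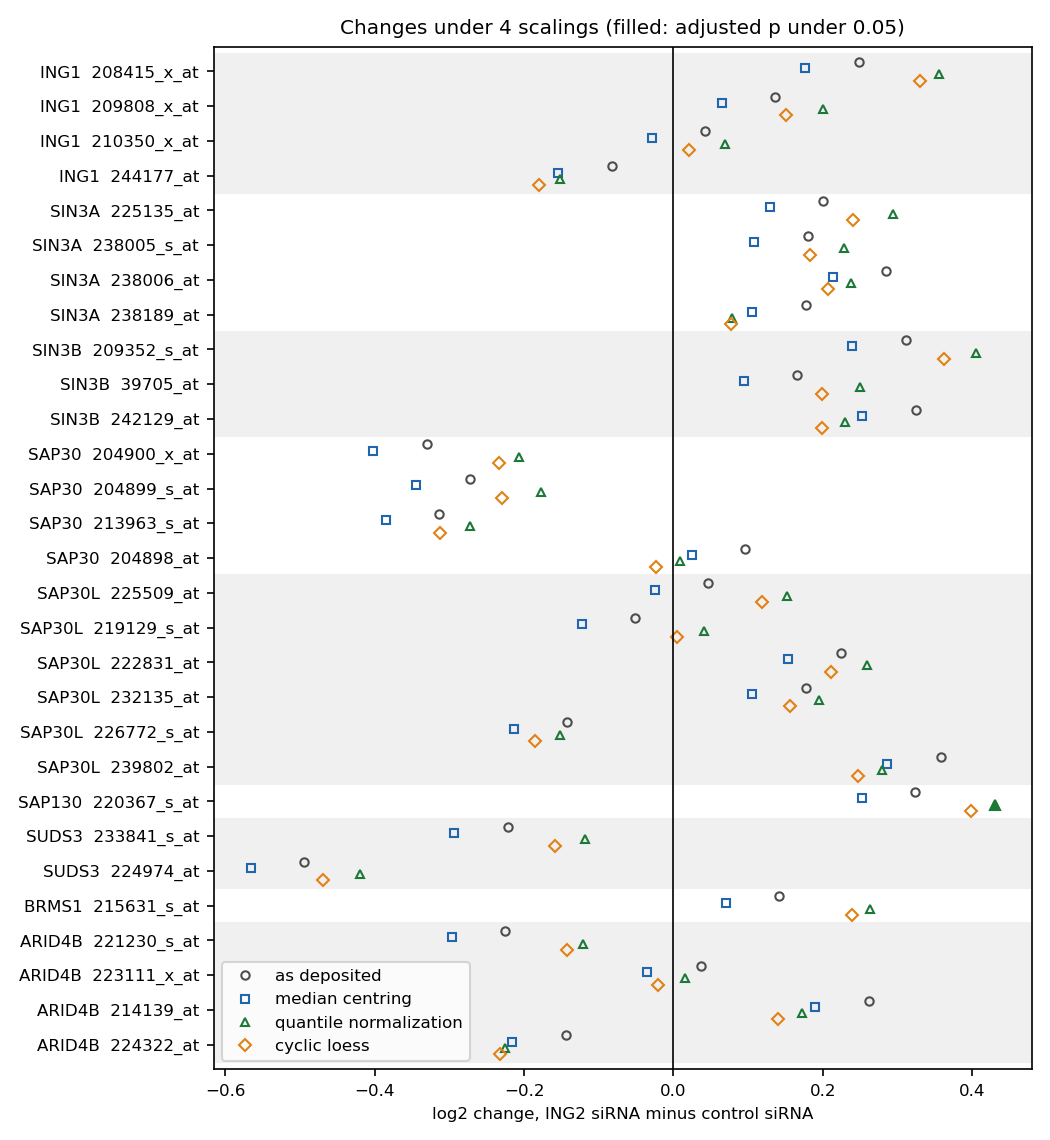
Log2 change, ING2 siRNA minus control siRNA (x axis), of the 29 probe sets with the values as deposited and after median centring, quantile normalization or cyclic loess, with filled symbols for adjusted p under 0.05. The only filled symbol is SAP130 after quantile normalization, at 0.43.

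The median SD of log2 intensity over the 29 was 0.14 on ING2 siRNA arrays and 0.11 on control arrays, against 0.12 and 0.11 over all probe sets. The largest SDs, 0.57 for SAP30 213963_s_at and 0.54 for SAP30L 226772_s_at, both came from low values in ING2 siRNA replicate 3. In 9 of the 29 probe sets that array was the farthest of the 6 from its group mean, as was ING2 siRNA replicate 1 in 9, while ING2 siRNA replicate 2 was in 1 and control replicates 1, 2 and 3 were in 6, 3 and 1.

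Other subunits and partners of the complex, 14 genes in all, were measured by 48 probe sets, of which 0 were called higher and 5 lower by limma (0% and 10.4%, against 1.64% and 3.64% of all probe sets). At an unadjusted p under 0.05, 2 were higher and 15 lower, or 4.17% and 31.2%, against 16.4% and 11.6% of all probe sets. RBBP4, a histone-binding chaperone shared with other chromatin complexes, fell in 2 of its 6 probe sets. Its 210371_s_at read 1231, 1377 and 1152 units after ING2 siRNA, against 1690, 1924 and 1750 units in control samples (log2 change -0.51, SE 0.10, limma adjusted p = 0.0252). The other called, 217301_x_at, carries the suffix x (log2 change -0.48, limma adjusted p = 0.0333, and 0.0746 after cyclic loess). RBBP4 225396_at and 239071_at had log2 changes of -0.12 and 0.03, and 244872_at and 237333_at of -0.41 and -0.42, none called. MORF4L1, a chromodomain protein found in a SIN3B complex and in the NuA4 acetyltransferase, fell in 2 of 3. In 221381_s_at it read 1558, 1656 and 1605 units after ING2 siRNA, against 2585, 2751 and 2854 units in control samples (log2 change -0.76, SE 0.09, limma adjusted p = 0.00380). This was the dimmest MORF4L1 probe set, and the brighter ones changed less. The other called, 224561_s_at, had a log2 change of -0.42 (limma adjusted p = 0.0237, and 0.0598 after cyclic loess). The brightest, 217982_s_at, had -0.33 and was not called (limma adjusted p = 0.0703). MORF4L1 has near-identical gene copies, so its values are uncertain.

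SAP18, which also belongs to a splicing-associated complex, fell in 1 of its 3 probe sets, 208740_at. This read 386, 420 and 354 units after ING2 siRNA, against 516, 595 and 504 units in control samples (log2 change -0.48, SE 0.10, limma adjusted p = 0.0350). All 3 of these genes had 1 called probe set left after cyclic loess, but of the 48 probe sets MORF4L1 221381_s_at alone passed when control replicate 2, control replicate 3, ING2 siRNA replicate 1 or ING2 siRNA replicate 3 was left out. The deacetylase HDAC1 had a value of -0.04 (limma adjusted p = 0.776) and the brighter HDAC2 probe set -0.32 (limma adjusted p = 0.148). None was called among the probe sets of RBBP7, SINHCAF, PHF12, KDM5A, GATAD1, OGT, FOXK1, FOXK2 and TET1, the last 3 being recruiting factors and a DNA-demethylating enzyme. The lowest value of the 48 was nonetheless that of OGT 229787_s_at (log2 change -0.79, SE 0.21, limma adjusted p = 0.0606). OGT 207564_x_at had -0.43 (limma adjusted p = 0.0554), and the remaining OGT probe sets had values from -0.12 to 0.19. The median over the 48 was -0.09, against 0.07 over all probe sets, and 32 values were below 0, or 66.7% against 37.5% of all probe sets. These shares over all probe sets take no account of intensity. Of the 48, called or not, 11 lay below the median intensity. Among only those probe sets of the whole array that were called lower, 11.9% lay below it. Against probe sets of like intensity, 14 of the 48 lay above the median of their bin. None lay above the 5th to 95th percentile of its bin and 5 lay below, or 10.4%, where the range leaves 5% of a bin below it.

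**Figure D5:**
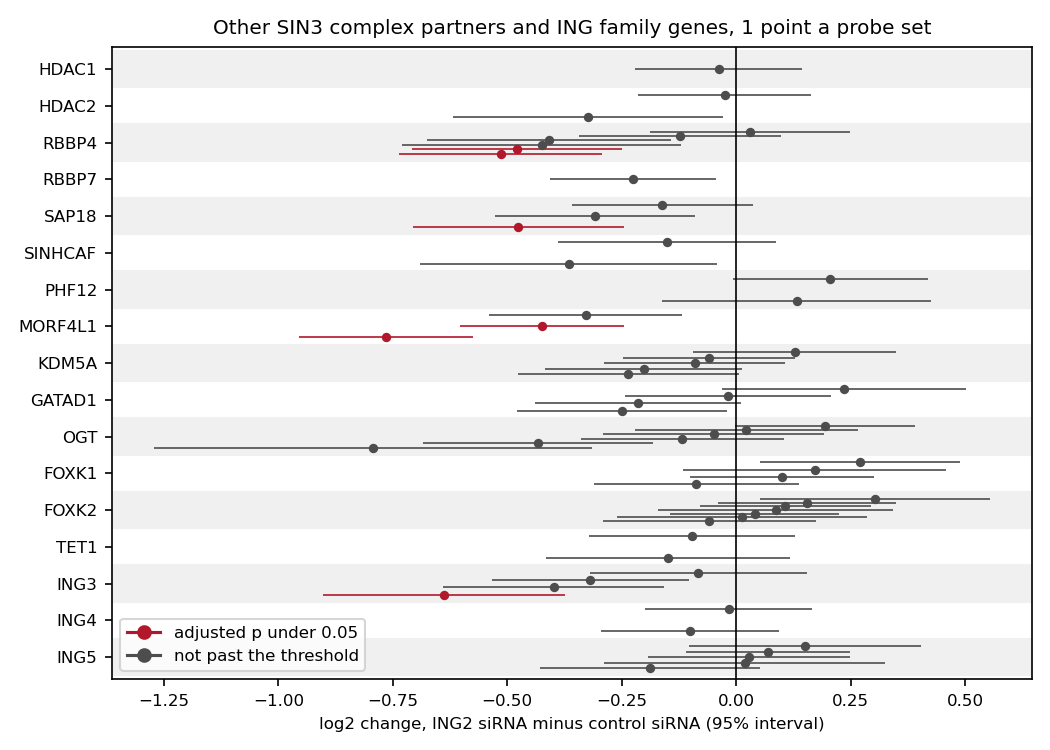
Log2 change, ING2 siRNA minus control siRNA (x axis), with its 95% interval for each probe set of 14 further partners of the SIN3 complex and of ING3, ING4 and ING5, red where adjusted p was under 0.05. Red points belong to RBBP4 (2), SAP18 (1), MORF4L1 (2) and ING3 (1), all below 0.

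Of the other ING genes, which act in acetyltransferase complexes, ING3 had values below 0 in all 4 probe sets and fell in 1. That probe set, 231863_at, read 94.3, 110 and 88.8 units after ING2 siRNA, against 131, 159 and 166 units in control samples (log2 change -0.64, SE 0.12, limma adjusted p = 0.0223). It did not pass when any of these same 4 arrays was left out, with limma adjusted p from 0.0802 to 0.108. The brightest ING3 probe set had a log2 change of -0.40 and limma adjusted p = 0.0614. ING4 and ING5 had values from -0.19 to 0.15 in their 7 probe sets, 0 of them called by limma and 0 with an unadjusted p under 0.05.

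The probe sets whose values followed ING2 205981_s_at most closely over the 6 arrays were those of PTP4A2, TYW3, SLC35A2, MBNL1 and ZMYND11, with Pearson r from 0.998 to 0.999. With 3 arrays on each side, such values largely reflect tight and separate groups, and 4.98% of 41060 compared probe sets had r above 0.9. PTP4A2, a tyrosine phosphatase gene, read 483, 490 and 465 units after ING2 siRNA, against 915, 903 and 893 units in control samples. MBNL1, a splicing regulator, read 65.6, 70.2 and 60.8 units after ING2 siRNA, against 217, 226 and 200 units in control samples. Its log2 change was -1.71 (SE 0.09, limma adjusted p = 0.000192), the largest of the 5. Those of PTP4A2 and ZMYND11 were -0.92 and -0.78 (limma adjusted p = 0.00200 and 0.00312). TYW3 and SLC35A2 were not called, with log2 changes of -0.26 and -0.31 (limma adjusted p = 0.0777 and 0.0544). As the 5 were picked for following ING2, these p-values add no support of their own.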

How the data were processed

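The table deposited by the authors holds linear intensity values per probe set, 1 array a sample. The submitters' processing notes name RMA and R 2.12. The sources used here do not give how linear values were made, nor any background correction or filter. Of 54675 probe sets, 62 control probe sets were left out of the tests. Names came from the platform's 2016 annotation, updated by gene identifier to RefSeq GRCh38.p14. A gene of their own was named by 41091, more than 1 gene by 1801, and 11721 had no listed gene. The log2 of each value was taken with no pseudocount or filter, and groups were compared with limma 3.58.1 (lmFit, eBayes; R 4.3.3) as ING2 siRNA minus control siRNA without covariates. A probe set was called when its p, adjusted by Benjamini-Hochberg over all 54613, was under 0.05. Levels were not compared between genes other than by rank of intensity among all probe sets. The ratio of the 2 ING2 probe sets was compared between the groups of arrays. All 10 genes were reported, with 18 partner genes, of which 14 had a probe set naming only them (not SAP25, BRMS1L, ARID4A or NCOR1), with ING3 to ING5, and with the 5 probe sets most like ING2. The genes and lists were chosen with earlier results of these data known. The method was tested on simulated data with independent noise. The simulation held no intensity trend and no shift or spread shared within an array, so it does not bear on calls that move with these. The siRNA and probe sequences were not analysed here. The labels give no pairing, so the numbers were not taken to pair the samples in the main fit. Same-numbered replicates had correlations of their deviations from group means of 0.15, 0.20 and 0.01. The highest correlation of ING2 siRNA replicates 1, 2 and 3 with a differently numbered control array was -0.06, 0.05 and 0.05. These values do not settle whether samples were paired, and results with a replicate block are given below.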

Additional observations from a re-analysis of the deposited data

How the results depend on the processing

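Both ING2 probe sets stayed lower and past the threshold in every fit that tested them, from -3.07 to -2.88 for 205981_s_at and from -1.61 to -1.12 for 213544_at. With 10 genes at 1 probe set each, or with dim probe sets left out, 1 ING2 probe set was tested and 1 was called lower, since the other was not in the fit. Calls among the 29 remaining probe sets came and went. Higher calls numbered 1 after quantile normalization (SAP130), 1 with 16 units added before log2, 1 with single-gene probe sets only and 1 with an intensity trend and robust eBayes (each SAP30L 239802_at), 3 with array weights (those 2 and SIN3B 209352_s_at), and 0 to 1 without each array in turn (SIN3B 242129_at without ING2 siRNA replicate 2). SUDS3 224974_at was called lower with array weights, with the replicate block (limma adjusted p = 0.0390) and without control replicate 1. No other probe set of the 9 genes was called in any of these fits, and some changed sign without being called.

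Over all 54613 probe sets, 897 higher and 1989 lower calls became 279 and 2927 after median centring and 308 and 1720 after cyclic loess. They became 564 higher after quantile normalization, 2435 and 3613 with array weights, and 1414 and 3135 with the replicate block. At adjusted p under 0.01 they were 3 and 273. With 1 probe set a gene, 924 were called lower of only 19775 tested, so that count cannot be set directly against 1989. Without each array in turn they ranged from 8 to 1266 higher and from 210 to 2956 lower. Both counts moved by over 1.5 times without ING2 siRNA replicate 1 or 3 or control replicate 2 or 3, and fewest were called without ING2 siRNA replicate 3. The 5 lower calls among the 48 partner probe sets became 9 after median centring and with an intensity trend, and 8 with array weights. They became 3 after cyclic loess, 2 after quantile normalization, 1 at adjusted p under 0.01 and 1 to 6 without each array. With dim probe sets left out 9 of 37 tested were called lower, and with 1 probe set a gene 1 of 14. The ING3 call, among 11 probe sets of ING3 to ING5, became 2 after median centring, with an intensity trend and with array weights. It became 3 of 8 tested with dim probe sets left out, 0 at adjusted p under 0.01 and 0 to 1 without each array. The cause of these moves was not tested. SIN3A 238189_at and ARID4B 224322_at are among the dimmest probe sets, at percentiles 10.5 and 4.56 of intensity, and no background level was measured against which to read them.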
